A study of Mus musculus with 6 samples.

Results

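Ras and Rap proteins form a family of small GTPases, and 9 of their genes were followed here in cultured mouse neurons after knockdown of *Pla2g4e*, which encodes an N-acyltransferase that makes precursors of N-acylethanolamines. The 9 genes were found by their symbols among the 55357 genes of the count files. They were *Rras*, *Rras2* and *Mras* of the R-Ras group, *Hras* and *Nras* of the classical Ras group, *Rap1a* and *Rap1b*, and *Rap2a* and *Rap2b*. The group was chosen for the response of its members to the knockdown, above all that of *Rras2*, in these same libraries, so that their differences between conditions are given as a description and carry no test. All 9 reached 6 reads in some library, as did 21876 genes in all, and these were the genes tested.

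Cells came from the cortex and hippocampus of embryos of wild-type C57BL/6N mice and were grown as mixed primary cultures. At 4 days in vitro (DIV4) they received lentivirus with either a scrambled short hairpin RNA (shCtrl) or the hairpin sh2 against *Pla2g4e* (shPla2g4e), and RNA of both groups was taken at DIV14. There were 3 libraries of poly(A) RNA in each group, with 20387986 to 22561667 counted reads in shCtrl and 17054717 to 23570180 in shPla2g4e. Each arm rested on a single hairpin sequence, with no rescue and no second hairpin among the sequenced libraries. The labels do not say that the 3 libraries of a group came from separate preparations, so that the p-values measure the spread between these libraries, which may be technical.

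A Ras or Rap protein is a switch that is on when it holds GTP and off when it holds GDP. Guanine nucleotide exchange factors (GEFs) load it with GTP, GTPase-activating proteins (GAPs) speed up hydrolysis back to GDP, and lipid groups at its C-terminal end hold it at membranes. In the active form it binds effectors such as Raf kinases, phosphoinositide 3-kinase and the Ral exchange factors. In neurons these proteins relay signals of growth factors and calcium to the ERK cascade, to cell adhesion and to the actin skeleton, and they act in the growth of axons, dendrites and spines.

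The targeted gene was checked first. *Pla2g4e* stood at 38.0, 35.1 and 35.4 CPM (reads per 1000000 counted, library sizes scaled with TMM factors) in the shCtrl libraries and at 21.8, 14.1 and 18.7 CPM in the shPla2g4e libraries. The groups did not overlap, and 50.5% of the shCtrl mean was left (log2 fold change -0.99, SE 0.13, edgeR quasi-likelihood test, adjusted p = 1.24e-04). Markers of neurons were abundant in every library and summed to 5410 to 5885 CPM over 8 genes in shCtrl and 4793 to 5219 CPM in shPla2g4e. Those of astrocytes summed to 2826 to 3630 and 1899 to 3082 CPM, and those of the oligodendrocyte lineage to 572 to 648 and 588 to 724 CPM. Proliferation genes summed to 61.5 to 85.4 and 55.9 to 61.1 CPM, endothelial and mural genes to 68.9 to 116 and 77.3 to 121 CPM with *Cldn5* at 0, and microglial genes to 4.58 to 9.50 and 3.05 to 5.37 CPM with *Itgam* and *Tmem119* too low to be tested. *Cspg4*, at 41.5 to 55.0 CPM, counts in both the endothelial and mural sum and that of the oligodendrocyte lineage. The endothelial *Pecam1*, *Tek*, *Flt1* and *Cdh5* did not exceed 1.42 CPM in any library. Among these lists, 3 of 8 neuronal genes (*Map2*, *Tubb3* and *Rbfox3*) and 3 of 8 astrocyte genes (*Slc1a2*, *Gja1* and *Aqp4*) fell, the neuronal *Nefl* rose and 1 of 6 proliferation genes (*Top2a*) fell, while no gene of the other lists passed the test. The shares of all tested genes that fell and rose were 4.00% and 2.48%. With the replicate block, a fit that pairs same-numbered libraries, the astrocyte list also held *Gfap*, *Aldoc* and *Slc1a3* as lower (6 of 8 in all) and *S100b* as higher, the neuronal list *Snap25* as higher, the proliferation list *Mki67* as lower and the oligodendrocyte list *Olig2* as lower, beside 9.02% lower and 6.50% higher of all tested genes. The part of these cell markers in the values of the Ras and Rap genes was not tested. In such bulk RNA, fewer cells of a type and less RNA per cell cannot be told apart.

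The sequence of the hairpin is shown because a guide RNA can pair with other transcripts through bases 2 to 8 at its 5′ end, the seed. The sh2 target lies on the minus strand at chr2:120182753-120182771 (GRCm38), in exon 11 of 20 of *Pla2g4e* and within its coding sequence. Capitals mark the seed in the guide and the 7 bases that pair with it in the target, both written 5′ to 3′ in DNA letters as the authors list them. The listed antisense oligonucleotide was taken as the guide with its first base as the 5′ end. The end that forms in the cell is not given in the sources used here, and an end shifted by 1 base would change the seed and with it every count of matches.
sh2 target: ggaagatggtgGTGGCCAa
sh2 guide: tTGGCCACcaccatcttcc

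For each gene, the coding transcript with the most bases in GENCODE vM21 was taken, and its 3′ UTR was searched on the transcript strand for the letters GTGGCCA. *Rras2* held 3 matches and *Rap1b* held 1, and the other 7 genes held none, in that transcript or in any other annotated coding transcript. Among all 15663 tested genes with a 3′ UTR of at least 7 bases, 13.4% held at least 1 match and 54 genes, or 0.345%, held 3 or more. The *Rras2* matches begin 540, 636 and 1050 bases after the stop codon, and the *Rap1b* match 1163 bases after it. The 24 bases around each are printed with the match in capitals. All lie in the last exon of genes on the minus strand.
Rras2 3′ UTR, chr7:114047610-114047633 (GRCm38): gtttttccaGTGGCCAaaatacca
Rras2 3′ UTR, chr7:114047514-114047537 (GRCm38): atattctctGTGGCCAaatgtttg
Rras2 3′ UTR, chr7:114047100-114047123 (GRCm38): catccactgGTGGCCAataatcag
Rap1b 3′ UTR, chr10:117814634-117814657 (GRCm38): gactttgagGTGGCCAaatgtaaa

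An A follows the match at each of these 4 places, and the 8 letters GTGGCCAA occurred in the 3′ UTR of 2.69% of these 15663 genes. Outside 3′ UTRs the 9 genes held a single match, in the coding sequence of *Mras* (exon 4 of 6, minus strand). It is shown for contrast, because *Mras* held a match there and none in its 3′ UTR. The longest unbroken run of letters shared with the sh2 target was also in *Mras*, elsewhere in its coding sequence, at 11 bases against 10 in *Rras2* and 9 in *Rap1b*, *Hras* and *Nras*.
Mras coding sequence, chr9:99393009-99393032 (GRCm38): atgatcctcGTGGCCAacaaggtg

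The letters CATCTTC, which pair with bases 2 to 8 of the other strand of the hairpin, were found in the 3′ UTRs of *Mras*, *Nras* and *Rap2b*, and in those of 14.3% of the 15663 genes. Neither *Rras2* nor *Rap1b* held them. These matches are a description of the letters in reference transcripts, and binding was not measured.

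**Figure D1:**
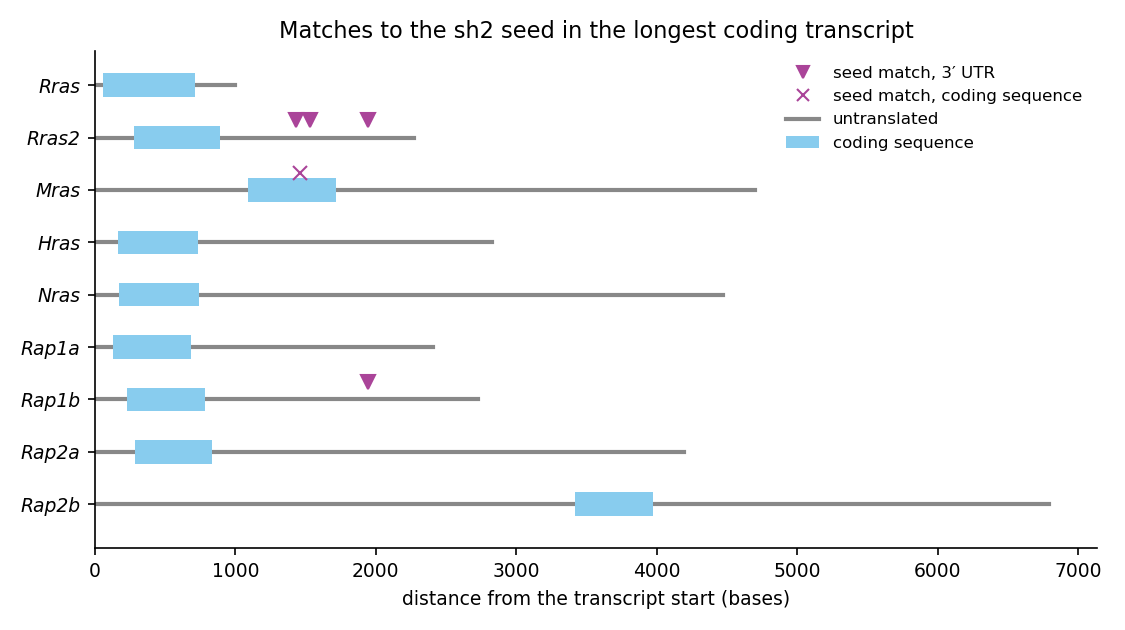
Longest coding transcript of the 9 Ras and Rap genes, drawn to scale in bases from the transcript start, with coding sequence as boxes, untranslated parts as lines, triangles for matches to the sh2 seed in the 3′ UTR and a cross for a match in coding sequence. *Rras2* carries 3 triangles, *Rap1b* 1 and *Mras* the cross, and the other 6 transcripts carry no mark.

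Of the R-Ras group, *Rras2* encodes R-Ras2 (TC21), which activates phosphoinositide 3-kinase and lies at chr7:113646017-113717016 (GRCm39, minus strand). It stood at 39.2, 38.4 and 40.4 CPM in the shCtrl libraries and at 13.6, 13.5 and 14.3 CPM in the shPla2g4e libraries. The 6 values fell into 2 tight and separate sets, with coefficients of variation of 2.63% and 3.22%. The mean went from 39.3 ± 1.04 to 13.8 ± 0.444 CPM (SD, n = 3), so that 35.0% of the shCtrl level was left, a log2 fold change of -1.51 (SE 0.098, interval of 2 SE -1.71 to -1.32). Libraries of the same number differed by -1.52, -1.51 and -1.50 on the log2 scale. Over the 6 fits that each omit 1 library, the value stayed between -1.54 and -1.49. This was the lowest of the 9 log2 fold changes.

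*Rras* encodes R-Ras, a regulator of integrins and cell adhesion (chr7:44667385-44671071, GRCm39, plus strand). Its levels were 20.5, 24.4 and 25.4 CPM in shCtrl and 22, 23.6 and 26.3 CPM in shPla2g4e. The groups overlapped, and the log2 fold change was 0.03 (SE 0.11, interval of 2 SE -0.20 to 0.26). *Mras* encodes M-Ras, which joins SHOC2 and protein phosphatase 1 in a complex that activates Raf kinases (chr9:99267473-99319434, GRCm39, minus strand). It was measured at 217, 203 and 187 CPM in shCtrl and at 199, 203 and 201 CPM in shPla2g4e. All 3 shPla2g4e values lay inside the shCtrl range, and the log2 fold change was -0.01 (SE 0.079, interval of 2 SE -0.17 to 0.15). Within the R-Ras group, then, *Rras2* was the member with separate groups.

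The classical proteins H-Ras and N-Ras activate Raf kinases and through them the ERK cascade. *Hras* (chr7:140769018-140773918, GRCm39, minus strand) was at 77.6, 91.6 and 80.0 CPM in shCtrl and at 67.7, 72.9 and 71.5 CPM in shPla2g4e. Each shPla2g4e library was below each shCtrl library, with a log2 fold change of -0.23 (SE 0.085, interval of 2 SE -0.40 to -0.06). *Nras* (chr3:102965601-102975230, GRCm39, plus strand) was at 138, 131 and 121 CPM in shCtrl and at 114, 129 and 96.6 CPM in shPla2g4e. The second shPla2g4e library lay inside the shCtrl range and the third was the lowest of the 6. The log2 fold change of *Nras* was -0.20 (SE 0.099, interval of 2 SE -0.40 to -0.002), and its spread in shPla2g4e, a coefficient of variation of 14.2%, was the widest of the 9 genes in that group. Its log2 fold change was -0.10 without the third shPla2g4e library and -0.30 without the second.

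Rap1 proteins strengthen integrin and cadherin adhesion, act in the polarity of neurons and can signal to ERK through B-Raf. *Rap1b* (chr10:117649776-117681940, GRCm39, minus strand) was at 102, 104 and 113 CPM in the shCtrl libraries and at 63.0, 60.1 and 66.3 CPM in the shPla2g4e libraries. The highest shPla2g4e library was far below the lowest shCtrl library. Its mean went from 106 ± 5.94 to 63.1 ± 3.09 CPM (SD, n = 3), with 59.3% left and a log2 fold change of -0.75 (SE 0.081, interval of 2 SE -0.92 to -0.59). Leaving out single libraries gave -0.79 to -0.71. *Rap1a*, whose protein is a close relative (chr3:105634583-105708652, GRCm39, minus strand), was at 31.4, 30.1 and 34.4 CPM in shCtrl and at 31.2, 27.1 and 34.1 CPM in shPla2g4e. Its groups overlapped, with a log2 fold change of -0.06 (SE 0.11, interval of 2 SE -0.27 to 0.15). Of the 50-base stretches of the *Rap1a* transcript, 9.46% also occur in its pseudogenes Gm9392 and Rap1a-ps2, so that its level is uncertain. For *Rras*, *Rras2*, *Mras*, *Hras* and *Rap1b* no such stretch was found in another gene.

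Rap2 proteins bind the kinases TNIK, MINK1 and MAP4K4 and are known for shortening dendrites and removing AMPA receptors from synapses. *Rap2a* (chr14:120715856-120744606, GRCm39, plus strand) was at 199.6, 189 and 171 CPM in shCtrl and at 194, 184 and 182.5 CPM in shPla2g4e, with a log2 fold change of 0.002 (SE 0.081, interval of 2 SE -0.16 to 0.16). *Rap2b* (chr3:61269059-61275851, GRCm39, plus strand) was at 28.5, 36.7 and 31.7 CPM in shCtrl and at 31.5, 31.0 and 29.1 CPM in shPla2g4e, with a log2 fold change of -0.08 (SE 0.10, interval of 2 SE -0.29 to 0.13). In both genes the shPla2g4e values lay within the shCtrl range. The level of *Rap2b* is uncertain, because 58.3% of its exon bases overlap Gm37696 and B430305J03Rik on the other strand and no strand option appears in the featureCounts command.

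**Figure D2:**
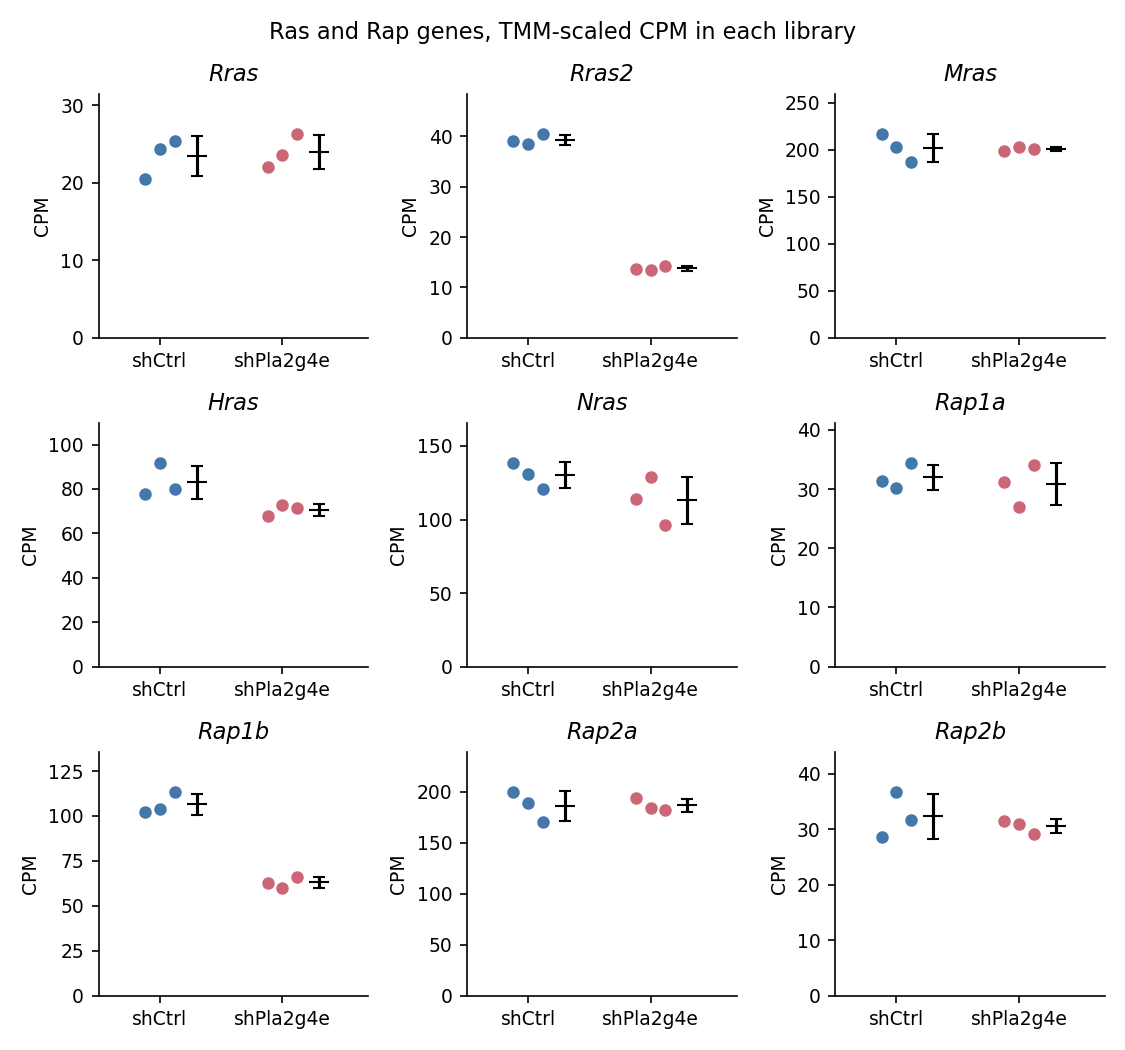
TMM-scaled CPM (vertical axis, from 0) of the 9 genes in the 3 shCtrl and the 3 shPla2g4e libraries, 1 point per library in the order of the replicate numbers, with the mean and SD of each group beside the points. The points of *Rras2* and *Rap1b* form separate sets, those of *Hras* are separate by a small gap, and those of the other 6 genes overlap.

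Over the whole group, 2 of 9 genes (*Rras2* and *Rap1b*) passed the threshold as lower and 0 as higher, with and without the replicate numbers as a block. Of all genes tested, 4.00% passed as lower and 2.48% as higher without the block, and 9.02% and 6.50% with it. Counted by separation alone, 3 of the 9 genes (*Rras2*, *Rap1b* and *Hras*) had every shPla2g4e library below every shCtrl library and 0 had the reverse. Of all genes, 14.6% were separate as lower and 15.5% as higher. As the genes were selected on this contrast, nothing is read from these counts. The median log2 fold change of the 9 was -0.08, against 0.03 over all tested genes, and the 7 genes short of the threshold lay between -0.23 and 0.03. Counted reads ranged from 250 for *Rras2* in the third shPla2g4e library to 4750 for *Mras* in the first, and coefficients of variation within a group from 1.18% to 14.2%.

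**Figure D3:**
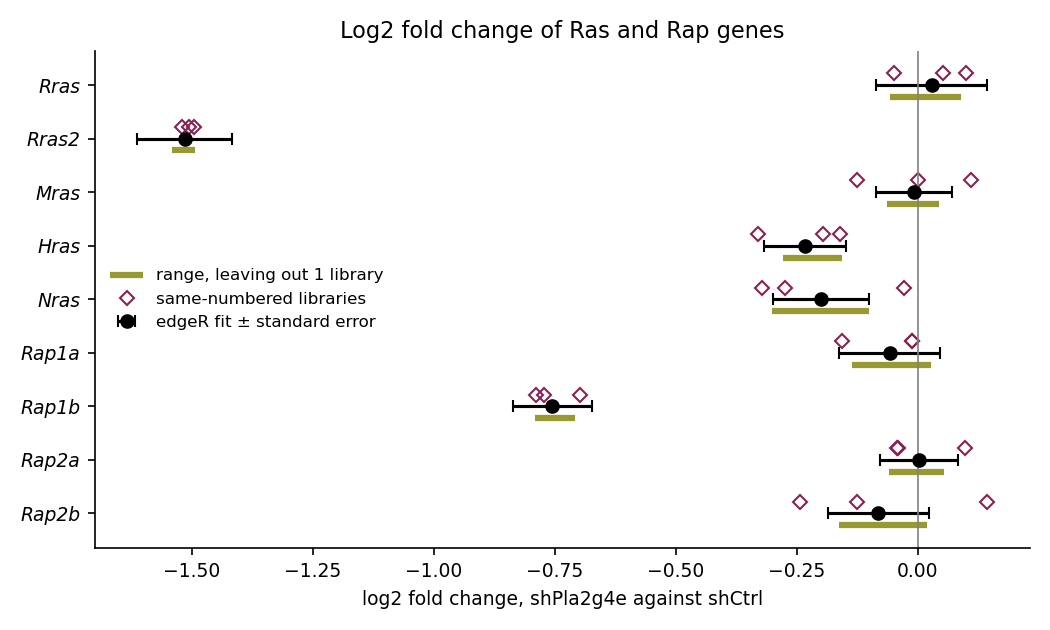
Log2 fold change (shPla2g4e against shCtrl, horizontal axis) of the 9 genes from the edgeR fit with its standard error, the range over the 6 fits that leave out 1 library, and the log2 ratio of each pair of same-numbered libraries. *Rras2* near -1.51 and *Rap1b* near -0.75 lie apart from the other 7, which run from -0.23 to 0.03.

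Levels of different genes were compared per kilobase of exon, a quantity the selection did not use. In shCtrl, *Rap2a* was highest at 44.5 ± 3.51 CPM per kilobase (SD, n = 3), followed by *Mras* at 39.4 ± 2.94 and *Rap1b* at 36.9 ± 2.06. The range of *Mras* overlapped those of both neighbours, and every shCtrl library of *Rap2a* was above every one of *Rap1b*. *Nras* at 24.4 ± 1.66, *Hras* at 22.3 ± 2.01 and *Rras* at 20.9 ± 2.28 CPM per kilobase formed a middle set, again with overlap between neighbours and none with *Rap1b*. *Rap1a* at 12.3 ± 0.829, *Rras2* at 11.1 ± 0.292 and *Rap2b* at 4.76 ± 0.605 CPM per kilobase were lowest, and the ranges of these 3 did not overlap. By level per kilobase, 95.7% of the tested genes lay below *Rap2a*, 78.3% below *Rras2* and 61.8% below *Rap2b*. Divided by the length of the longest coding transcript instead, *Rras2* (17.3 CPM per kilobase) ranked above *Rap1a* (13.3) and *Hras* (29.4) above *Nras* (29.1).

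Per kilobase of exon in shPla2g4e, *Rap1b* kept rank 3 by its mean, *Rras* moved from rank 6 to rank 4 ahead of *Nras* and *Hras*, and *Rras2* and *Rap2b* exchanged ranks 8 and 9. *Rap1b*, at 21.9 ± 1.07 CPM per kilobase, lay among *Rras* (21.4 ± 1.93) and *Nras* (21.2 ± 3.01), whereas in shCtrl its range did not meet theirs. *Rras2* went to the last place at 3.88 ± 0.125 CPM per kilobase, below *Rap2b* at 4.49 ± 0.187, and the ranges of these 2 genes did not overlap. These exchanges depended on the length used. Divided by the longest coding transcript, *Rap1b* (23.2 ± 1.13) went from rank 3 in shCtrl to rank 6 in shPla2g4e, behind *Nras* (25.3), *Hras* (25.0) and *Rras* (24.1 CPM per kilobase), and *Rras2* (6.06 ± 0.195) went from rank 7 to rank 8 and stayed above *Rap2b* (4.49 ± 0.187).

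**Figure D4:**
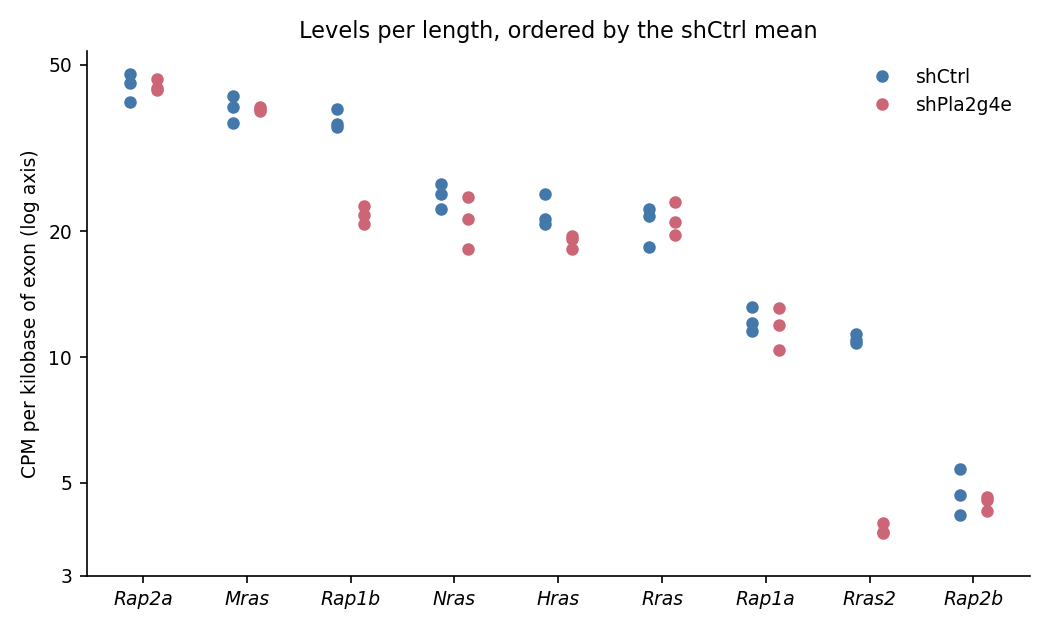
CPM per kilobase of exon (vertical log axis) of the 9 genes in each shCtrl and shPla2g4e library, ordered by the shCtrl mean from *Rap2a* at 44.5 to *Rap2b* at 4.76. Within shPla2g4e, *Rras2* at 3.88 lies under *Rap2b* at 4.49 and *Rap1b* is level with *Rras* and *Nras*, whereas per length of the longest coding transcript *Rras2* stayed above *Rap2b*, at 6.06 against 4.49.

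The make-up of each subgroup followed from these values and is given as a description. *Rras2* supplied 15.4%, 14.97% and 16.2% of the summed R-Ras level per kilobase in shCtrl and 6.15%, 5.87% and 6.03% in shPla2g4e. The ratio of *Rras* to *Rras2* was 1.66, 2.02 and 1.99 in shCtrl and 5.13, 5.56 and 5.83 in shPla2g4e. *Rap1b* supplied 74.6%, 75.7% and 74.9% of the Rap1 level in shCtrl and 64.6%, 66.8% and 63.7% in shPla2g4e, and was the larger Rap1 gene in all 6 libraries. Summed over the 9 genes, the level was 216 ± 3.76 CPM per kilobase in shCtrl and 187 ± 0.826 in shPla2g4e (SD, n = 3). By subgroup, the Rap1 sum went from 49.2 ± 2.83 to 33.7 ± 2.43 and the Rap2 sum from 49.3 ± 3.42 to 49.1 ± 1.61 CPM per kilobase. The R-Ras sum went from 71.4 ± 0.931 to 64.4 ± 2.26 and that of *Hras* and *Nras* from 46.7 ± 2.53 to 40.2 ± 3.23 CPM per kilobase.

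Across all tested genes with a 3′ UTR, the share that passed the threshold as lower was larger in classes with more matches to the sh2 seed in the 3′ UTR. It was 3.59% of 13560 genes with no match, 15.8% of 1803 genes with 1, 24.8% of 246 with 2 and 40.7% of 54 with 3 or more. The median log2 fold changes of these classes were 0.02, -0.13, -0.25 and -0.38. *Rras2* had the 4th lowest log2 fold change of the 54 genes with 3 or more matches, and *Rap1b* the 111th lowest of the 1803 genes with 1. Both belong to a group selected on this contrast, so nothing is read from their ranks. Among 3364 genes with a match in the coding sequence and none in the 3′ UTR, the class of *Mras*, 5.74% passed as lower. For the letters paired with the other hairpin strand the shares were 7.55% of 2237 genes with a match and 5.10% of 13426 without. The length of the 3′ UTR moved with the number of matches, with medians of 978.5 bases in the class with none and 4595 bases in the class with 3 or more, and its part in the shares was not tested. The part of the matches in the levels of *Rras2* and *Rap1b* was not tested either, and with 1 hairpin an effect of lower *Pla2g4e* and an effect of the hairpin itself cannot be told apart.

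The genes most like *Rras2* over the 6 libraries, by the root mean square difference of log2 CPM centred on each gene's mean, were found among 10907 others whose log2 CPM averaged 3 or more. They were *Wiz* at 0.101, *Grn* at 0.106 and the noncoding 1700020I14Rik at 0.111. *Wiz*, which encodes a zinc finger partner of histone methyltransferases, had a mean of 138 ± 12.9 CPM in shCtrl and 46.8 ± 3.34 in shPla2g4e. *Grn*, which encodes progranulin, had 79.6 ± 5.33 and 31.1 ± 1.12 CPM, and 1700020I14Rik had 566 ± 44.9 and 183 ± 10.2 CPM (SD, n = 3 each). *Wiz* and *Grn* each held 2 matches to the seed in the annotated 3′ UTR with the most, and 1700020I14Rik has no coding transcript in which to search. In the longest coding transcript, 1.92% of the 15663 genes held 2 or more. Likeness follows the difference between the groups on which *Rras2* was chosen, so nothing is read from these matches. *Rap1b* was 153rd in likeness at 0.379.

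Around the 9 genes, 112 genes that load, switch off, anchor or read out Ras and Rap proteins were listed by role, and 108 could be tested. By the edgeR test, 5 of them fell (4.63%) and 4 rose (3.70%), beside 4.00% and 2.48% of all genes, and with the replicate block 20 (18.5%) passed as lower and 15 (13.9%) as higher, beside 9.02% and 6.50% of all genes. Their median log2 fold change was -0.03, beside 0.03 over all tested genes. *Eras*, *Rasal3*, *Rem1* and *Rergl* had too few reads to be tested. Without the block, 3 of the 20 listed genes with a match to the sh2 seed in the 3′ UTR fell and 0 rose. Their lower share of 15% stands beside 17.5% of all genes with a match. Of the 88 without a match, 2 fell and 4 rose, a lower share of 2.27% beside 3.59% of all genes without a match. With the block, the genes with matches that passed as lower were *Ksr2* (3 matches), *Diras2* (2), and *Rasgrf2*, *Dab2ip*, *Rapgef1*, *Rap1gap* and *Ksr1* (1 each). *Rasal2* (2 matches), *Rapgef6* and *Rin1* (1 each) passed as higher with it.

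Among the 8 exchange factors for Ras, 2 fell and 2 rose. With the replicate block 2 passed as lower (25%) and 3 as higher (37.5%), beside 9.02% and 6.50% of all genes. *Rasgrf2* is a neuronal exchange factor regulated by calcium, and its mean CPM fell from 148.5 ± 19.4 to 81.4 ± 6.70 (log2 fold change -0.87, SE 0.099, adjusted p = 2.93e-05). *Rasgrp2*, which acts mainly on Rap proteins, fell from 34.9 ± 1.14 to 20.9 ± 1.97 CPM (-0.74, SE 0.10, adjusted p = 1.62e-04). Both stayed past the threshold with any single library left out. *Rasgrp1*, which is activated by diacylglycerol, rose from 122.5 ± 6.91 to 167 ± 12.5 CPM (0.44, SE 0.083, adjusted p = 0.00199), and the low *Rasgrp4* rose from 1.74 ± 0.032 to 4.62 ± 1.66 CPM (1.41, SE 0.27, adjusted p = 0.00273). Without the first shPla2g4e library the adjusted p of *Rasgrp1* was 0.0163, and without the second that of *Rasgrp4* was 0.0233. *Sos1* and *Sos2*, the exchange factors that growth factor receptors recruit, had log2 fold changes of 0.13 and -0.19, the latter -0.12 without the first shPla2g4e library, and did not pass. *Rasgrf1*, a relative of *Rasgrf2*, was at 0.35 (adjusted p = 0.0264) and passed as higher with the block (adjusted p = 2.84e-05). The lowest value of all lists, -1.91 for *Rasgrp3*, rested on 0 to 22 reads per library and did not pass either (adjusted p = 0.156), and was -3.05 without the third shPla2g4e library.

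Of 9 tested GAPs for Ras, 1 fell. *Dab2ip*, a GAP known for neuronal migration, was at 156 ± 7.60 CPM in shCtrl and 114 ± 14.1 in shPla2g4e (-0.46, SE 0.093, adjusted p = 0.00352), and without the second shCtrl library its adjusted p was 0.0195. *Rasa4* (0.68, SE 0.16, adjusted p = 0.0105) and *Rasal2* (0.29, SE 0.074, adjusted p = 0.0159) were short of the threshold and passed it as higher with the replicate block (adjusted p = 7.50e-05 and 3.56e-04). *Nf1*, which encodes neurofibromin, had a log2 fold change of -0.06 (SE 0.078).

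For Rap, none of the 6 Rapgef genes listed as its exchange factors and none of the 6 GAPs passed the edgeR test, while *Rasgrp2*, which also loads Rap, fell and was counted above with the exchange factors for Ras. Among the exchange factors, *Rapgef6* had a log2 fold change of 0.32 and *Rapgef4*, which encodes the cyclic AMP sensor Epac2, of 0.27, and *Rapgef1* of -0.23 (adjusted p = 0.0418, 0.0777 and 0.0803). With the block these 3 passed, the first pair as higher and *Rapgef1* as lower (adjusted p = 0.0026, 0.00174 and 0.00571). All 6 Rap GAPs had log2 fold changes below 0 in the edgeR fit, from -0.29 to -0.06, but *Sipa1*, the nearest to 0, was at 0.02 with scaling by library size alone and at 0.07 without the second shCtrl library. With the block, 3 of the 6 passed as lower (50%), beside 9.02% of all genes. These were *Rap1gap* (158 ± 11.7 to 129 ± 5.50 CPM), *Rap1gap2* (163 ± 10.7 to 137 ± 3.70 CPM) and *Sipa1l2* (138 ± 10.3 to 115 ± 14.5 CPM), with adjusted p = 0.0248, 0.046 and 0.0942 without the block and 4.12e-04, 0.00224 and 0.00245 with it.

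Among 16 effectors of Ras, 1 fell. *Plce1*, which encodes phospholipase C epsilon, was at 42.5 ± 5.24 CPM in shCtrl and 26.5 ± 5.77 in shPla2g4e (-0.69, SE 0.13, adjusted p = 0.00271), and at an adjusted p of 0.0261 without the second shCtrl library. *Ralgds*, an exchange factor for Ral (-0.33, adjusted p = 0.0114), and *Tiam1*, one for Rac (-0.33, adjusted p = 0.03), passed as lower with the block (6.89e-05 and 2.49e-04). *Pik3cb*, a catalytic subunit of phosphoinositide 3-kinase, and *Rin1*, an exchange factor for Rab5, were at 0.36 and 0.34 and passed as higher with the block (adjusted p = 0.0331 and 0.049 without it, 0.0024 and 0.00283 with it). Of 9 effectors of Rap, none passed without the block. *Raph1*, which encodes lamellipodin, was at -0.25 with an adjusted p of 0.074 and passed as lower with the block (0.00273), while *Rasip1* and *Map4k4* at -0.45 and -0.17 did not pass in either fit (adjusted p = 0.148 and 0.183).

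In the ERK cascade with its scaffolds and feedback inhibitors, 0 of 16 genes passed. The scaffold *Ksr1* (-0.40, adjusted p = 0.0127), *Mapk3*, which encodes ERK1 (-0.32, adjusted p = 0.0184), and the scaffold *Ksr2* (-0.28, adjusted p = 0.0761) passed as lower with the block (5.81e-05, 7.95e-05 and 0.00268). Without the first shCtrl library *Ksr2* was at -0.16. Of 15 genes for lipid modification and trafficking of Ras proteins, 0 passed, and *Abhd17c*, a depalmitoylase (-0.30, adjusted p = 0.0413), and *Lztr1*, an adaptor for the degradation of Ras proteins (-0.27, adjusted p = 0.0476), passed as lower with the block (0.00432 and 0.00136). *Abhd17a*, another depalmitoylase, was at -0.15 with an adjusted p of 0.258.

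Of 23 tested further GTPases of the Ras subfamily, 1 fell and 2 rose. *Diras2*, a GTPase of the brain, was at 448, 442 and 380 CPM in shCtrl and at 254, 173 and 246 CPM in shPla2g4e (-0.91, SE 0.12, adjusted p = 1.15e-04). *Rasd1*, a glucocorticoid-induced gene, rose from 2.68 ± 1.29 to 7.67 ± 1.05 CPM (1.51, SE 0.28, adjusted p = 0.00168). *Rrad*, an inhibitor of voltage-gated calcium channels, rose from 3.03 ± 0.229 to 6.76 ± 1.85 CPM (1.16, SE 0.22, adjusted p = 0.00246), with an adjusted p of 0.0211 without the first shPla2g4e library. With the block 3 of the 23 passed as lower and 6 as higher. Those gained were *Rala* and *Diras1* at -0.25 each as lower (adjusted p = 0.00374 and 0.0043 with the block, 0.0599 and 0.093 without) and *Rasd2*, *Gem*, *Rasl11a* and *Rem2* as higher. These 4 were at 0.74, 0.60, 0.54 and 0.38, with an adjusted p of 0.0136 to 0.102 without the block and of 6.85e-08 to 0.00928 with it. With 1 library left out, *Diras1* was at -0.15 (without the first shCtrl library), *Rasl11a* at 0.30 (without the second shCtrl library) and *Rem2* at 0.18 (without the first shPla2g4e library). The plot by role shows the 9 called genes against the rest of the lists.

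**Figure D5:**
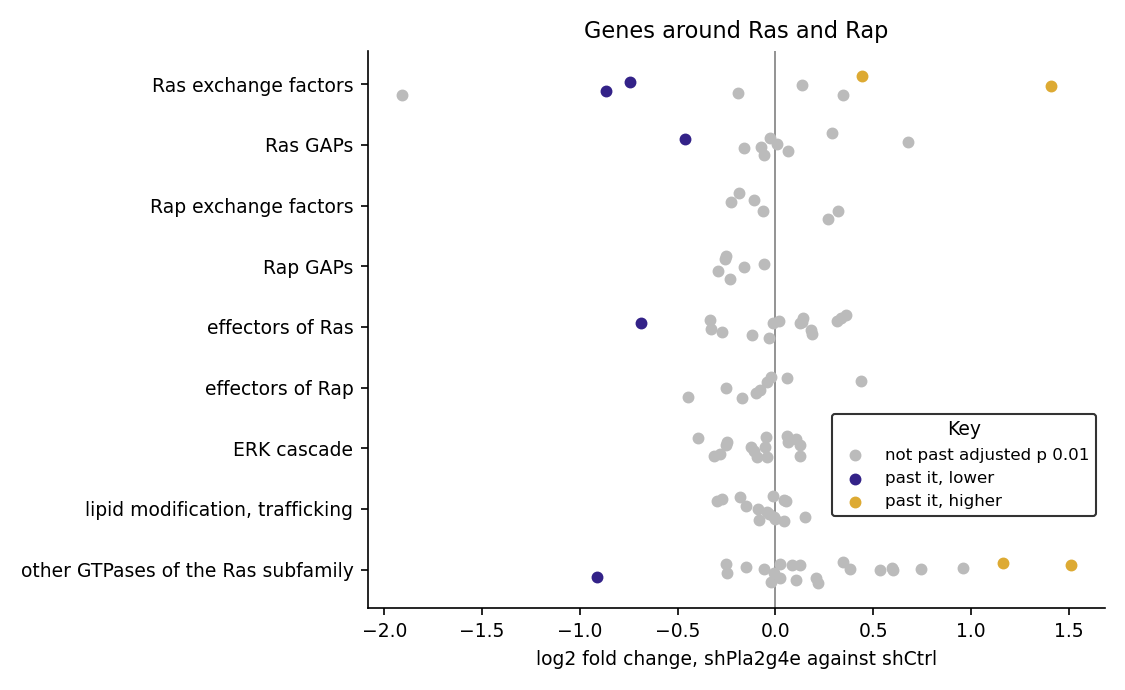
Log2 fold change (shPla2g4e against shCtrl, horizontal axis) of the 108 tested genes around Ras and Rap, in 1 row for each role, with colours for genes that passed an adjusted p of 0.01 in the edgeR test as lower or higher. The rows of the Rap GAPs, Rap exchange factors, Rap effectors, ERK cascade and lipid modification hold no coloured point, and the 9 coloured points lie in the other 4 rows.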

How the data were processed

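RNA-seq was done on 6 libraries, 3 per group, which the labels number 1 to 3. Reads were aligned by the authors with STAR 2.7.0d and counted per gene with featureCounts 1.6.0, and they deposited raw counts for each library on GRCm39, where the methods of the study name an older build. No strand option appears in the featureCounts command. Symbols came from GENCODE vM21 (GRCm38) and matched 52081 of 55357 identifiers. The other 3276 genes, which held at most 0.387% of any library, were tested under their identifiers.

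Differential expression was computed with edgeR 4.0.16 (R 4.3.3; TMM, quasi-likelihood fit) over 21876 genes that reached 6 reads in some library, with Benjamini-Hochberg adjustment and a threshold of 0.01, and the script was tested on simulated data. After the group means were subtracted, same-numbered libraries correlated at 0.392, 0.189 and 0.461 and others at -0.393 to 0.108 (10908 genes whose log2 CPM averaged 3 or more). A fit with the replicate block, which treats the numbers as pairs, was therefore run as an alternative. The main fit leaves any pairing out, and calls given without mention of the block rest on it. Chi-square per gene was 6.03 to 15.4 within groups, so no library was counted as a duplicate. limma 3.58.1 after voom, DESeq2 1.42.0 and the other alternatives are given at the end.

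The members and the gene lists were chosen with earlier results of these data known. Besides the members and *Pla2g4e*, the text names the 3 genes with the smallest p in each list, every called gene of a list with at most 5 of them, and the 3 genes most like *Rras2*. *Sos1*, *Sos2*, *Rasgrp3*, *Nf1*, *Sipa1*, the marker genes and *Rasgrf1*, *Pik3cb*, *Rin1*, *Rala*, *Diras1*, *Rasd2*, *Gem*, *Rasl11a* and *Rem2*, whose calls the block changed, were added to these once values were known. The oligonucleotide of sh2 was read from the supplement of the study. The result of 1 listed gene is not reported here.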

Additional observations from a re-analysis of the deposited data

How the results depend on the processing

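*Pla2g4e* stayed past the threshold as lower under all 16 alternatives, and its log2 fold change ran from -1.14 to -0.83 with 1 library left out. Over the other settings that of *Rras2* ran from -1.52 to -1.44 and that of *Rap1b* from -0.76 to -0.68. *Rras*, *Mras*, *Rap1a*, *Rap2a* and *Rap2b*, which were near 0, changed sign with 1 library left out, within -0.16 to 0.09. No called gene changed direction. The counts over all genes, 876 lower and 543 higher, became 1360 and 989 without the filter, 1973 and 1422 with the replicate block, and 1599 and 1214 at a threshold of 0.05. They ran from 449 to 932 and from 246 to 681 with 1 library left out, lowest without the second shCtrl library. The lower count was 543 without the first shCtrl library, and the pair of counts was 548 and 306 without the first and 570 and 361 without the second shPla2g4e library. Scaling by library size alone turned the balance to 609 lower and 796 higher, with the median of all log2 fold changes at 0.10. The pathway genes, 5 lower and 4 higher, became 9 and 8 with DESeq2, 9 and 8 without the filter, 20 and 15 with the block, and 14 and 13 at 0.05. Higher pathway genes numbered 8 with library size alone and 7 with upper-quartile scaling. With 1 library left out they ran from 3 to 7 lower and from 2 to 8 higher. The lower count was 3 without the second shCtrl or the second shPla2g4e library, and the higher count was 2 without the second shCtrl or the first shPla2g4e library and 8 without the third shPla2g4e library. The cause of these moves was not tested, apart from the numbers of genes and samples that the settings fix. Beyond the genes given above, the block changed no call of a named gene, the named marker genes and the genes most like *Rras2* included. At this depth the low *Rasgrp4*, *Rasd1* and *Rrad* rest on 27 to 207 reads per library.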
